A study of Rattus norvegicus with 12 samples.

Results

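The effect of 2 antihypertensive drugs was examined in the 6 atrial-type libraries of spontaneously hypertensive rats (SHRs), 2 from rats given saline and 4 from rats given a drug, out of 12 RNA-seq libraries labelled as left atrium in all. The libraries were chosen by their reads of 4 myosin light chain genes. A library of the SHR strain was kept when Myl2 and Myl3, the light chains of ventricular muscle, held under 5% of the reads of Myl2, Myl3, Myl4 and Myl7 together, the last pair being the light chains of atrial muscle. This share was 0.0626% in SHR 1, 0.0572% in SHR 3, 0.130% in ARB 1, 0.153% in ARB 2, 0.143% in ARNI 1 and 1.08% in ARNI 3. The libraries of SHRs outside the rule were SHR 2 at 43.2%, ARB 3 at 44.0% and ARNI 2 at 99.8%, and those of the 3 WKY libraries, from the normotensive strain, lay between 99.82% and 99.97%. The 4 genes were used for this choice, and their levels are not reported as a result.

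All rats of the 3 groups were SHRs, which become hypertensive as they age, were bought at 14 weeks of age and received treatment for 4 weeks. The SHR group received saline (7.5 ml/kg/day). The ARB group received the angiotensin receptor blocker valsartan (30 mg/kg/day), and the ARNI group an angiotensin receptor-neprilysin inhibitor, sacubitril/valsartan, at 60 mg/kg/day. The 60 mg/kg/day is that of the combination, and its valsartan content is not given in the sources used here. A comparison between the drug groups is thus one of treatments as given. The labels contradict themselves on the strain. The titles of the SHR libraries carry the words for WKY rats, those of the WKY libraries carry the words for SHRs, and the ARB and ARNI libraries have a WKY strain tag beside an SHR phenotype. The libraries were grouped by the name in brackets. Ndufa10l1 was at 54.0 to 75.0 CPM (the count scaled to a library total of 1000000) in the 6 libraries, at 89.4 to 119 CPM in the 3 other libraries of SHRs, and at 0 in the WKY libraries. Cd36, a fatty acid transporter, was at 63.6 to 149 CPM in the 6 libraries and at 1382 to 1584 CPM in the WKY libraries. On these genes the 6 libraries resembled the other SHR libraries and not the WKY ones.

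Angiotensin II is cut from angiotensinogen by renin and the angiotensin-converting enzyme. Through its type 1 receptor, the target of valsartan, it constricts vessels, retains salt and promotes growth and matrix deposition in the heart. Neprilysin, the target of sacubitril, degrades natriuretic peptides, which atrial muscle secretes when stretched and which act through membrane guanylyl cyclases and cyclic GMP.

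The 6 libraries held 14538775 to 15823525 counts, and a count of 0 allows up to 3 counts, or 0.190 to 0.206 CPM, counting error alone considered. Drug treatment was not the main source of variance. The first principal component held 43.4% of it and set ARNI 3 and ARB 2 apart from SHR 1, ARB 1 and ARNI 1, while the second held 21.5% and set SHR 3 apart from the other 5. SHR 1 correlated more closely with ARB 1 (r = 0.980, log2 CPM across genes) and ARNI 1 (r = 0.975) than with the other saline library, SHR 3 (r = 0.959). Bmp10, a right atrial gene in the adult heart, was at 934 and 1.02 CPM with saline, 815 and 563 CPM with ARB, and 1741 and 139.6 CPM with ARNI. SHR 3 was the library with the least Bmp10, and ARNI 3 lay below the other 4. Adipoq and Plin1, genes of white fat, were above 60 CPM in ARB 2 and ARNI 3 and at most 0.126 CPM in the other 4, and the 9 white fat genes, all tested, summed to 935 and 1146 CPM there against 175 to 227 CPM. Ucp1, the uncoupling protein of brown fat, was at 15.6 CPM in ARB 2 and 182 CPM in ARNI 3. The summed level of 12 neuronal genes, 5 of them tested, was 227 CPM in ARNI 3 and 16.3 to 27.96 CPM in the others. The part of these differences in the results below was not tested, except where a value without a library is given. The labels do not say that each library came from its own rat, so p-values measure the spread between these libraries. Fewer cells of a type and less RNA per cell cannot be told apart in such bulk samples.

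**Figure D1:**
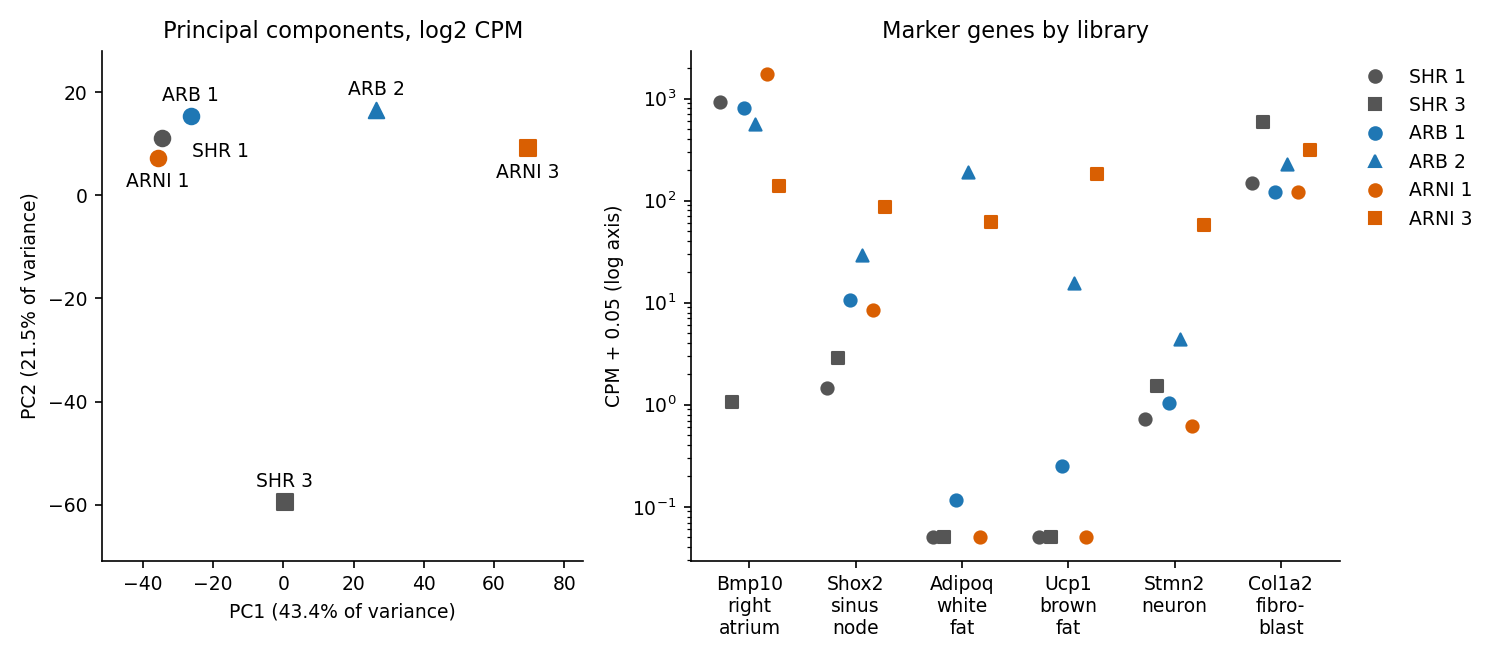
Principal components of log2 CPM (left, axes with their share of the variance) and CPM + 0.05 on a log axis of 6 marker genes (right), 1 point per library. SHR 1, ARB 1 and ARNI 1 lie together at PC1 below -26, ARB 2 (26.48) and ARNI 3 (69.55) lie to the right with Adipoq and Ucp1 above 15 CPM, and SHR 3 lies alone on PC2 (-59.45).

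The first comparison asked which genes differed between treated SHRs, on either drug, and SHRs given saline. No gene passed the thresholds on fold change and adjusted p. With so few libraries, some genes separate fully without any effect. Here all 4 treated values were above both saline values for 3.31% of genes and below both for 6.78%. Those with the smallest p included Hcn4, S1pr3 and Gpr155, which were higher with treatment by a log2 fold change of 0.997 to 1.24, and Ptprr, Rgs2 and Kcnj2, which were lower. By edgeR's quasi-likelihood test, 0 of 14390 genes (0%) reached both a log2 fold change of 1 in size and, after Benjamini-Hochberg adjustment, a p of 0.05 or less, and the smallest adjusted p was 1. An unadjusted p under 0.05 was found for 346 genes (2.40%), 170 higher and 176 lower. This share, like those of the single-drug comparisons below, is under the 5% that chance gives when no gene differs. DESeq2, the tool of the study, called 10 genes, 9 higher and 1 lower. All 4 treated values were above both saline values for 476 genes (3.31% of those tested) and below both for 975 (6.78%), and these shares are the background for each count of a gene list below. Without ARB 2 and ARNI 3, the libraries with fat genes, 0 genes were called, the smallest adjusted p was 0.748, and 365 genes had an unadjusted p under 0.05.

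The 12 genes in each direction with the smallest unadjusted p, among those whose groups did not overlap, are described next. All have an adjusted p of 1 in edgeR, and fold changes are log2 values of treated over saline with their SE. Hcn4 encodes the channel of the pacemaker current. It was at 55.3 and 46.2 CPM with saline, 105 and 116 CPM with ARB, and 91.4 and 84.1 CPM with ARNI, with a fold change of 0.997 ± 0.17 (unadjusted p = 0.000572 in edgeR). All 4 treated libraries lay well above both saline ones, those with ARB highest. In DESeq2 its adjusted p was 0.000349, with a fold change just under the threshold. Other genes of the sinus node were also higher in some treated libraries. Shox2, a transcription factor of that tissue, was at 1.404 and 2.85 CPM with saline, 10.5 and 29.4 CPM with ARB, and 8.34 and 87.4 CPM with ARNI, and Tbx3 was at 3.54 and 6.16 CPM with saline, 6.68 and 9.35 CPM with ARB, and 3.35 and 29.9 CPM with ARNI. The summed level of the 6 sinus node genes was 119 to 139.7 CPM with saline and 177 to 271 CPM with treatment. The sum includes Hcn4, picked for groups that did not overlap, so its gap is in part set by that choice. Vsnl1, another of the 6, was at 79.3 and 64.1 CPM with saline, 77.6 and 97.8 CPM with ARB, and 73.9 and 67.9 CPM with ARNI. The groups overlapped in Vsnl1 and Tbx3 but not in Shox2. Of the 6 genes, 4 were tested, and Isl1 was at 0 in both saline libraries. The part of sampled nodal tissue in the Hcn4 values was not tested. Outside the rule, Hcn4 was at 73.4 CPM in SHR 2, 29.2 CPM in ARB 3 and 23.3 CPM in ARNI 2, so treated rats were not higher there.

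S1pr3, a receptor for sphingosine-1-phosphate, was at 20.4 and 14.8 CPM with saline, 44.4 and 47.5 CPM with ARB, and 28.6 and 42.95 CPM with ARNI (1.24 ± 0.24, unadjusted p = 0.00143 in edgeR). Gpr155, a cholesterol-sensing protein of the lysosome, was at 26.4 and 20.3 CPM with saline, 43.9 and 43.95 CPM with ARB, and 41.96 and 53.9 CPM with ARNI (1.01 ± 0.17, unadjusted p = 0.000661 in edgeR). Both were called by DESeq2, with adjusted p of 0.00441 and 0.00173, and in each gene the treated libraries on both drugs lay above both saline libraries. Cyp26b1, which clears retinoic acid, was at 3.28 and 2.57 CPM in the saline libraries against 14.4, 6.95, 15.1 and 6.51 CPM in the treated ones (fold change 1.92 ± 0.48). Tgm1, a transglutaminase, was at 8.49 and 8.47 CPM in the saline libraries against 17.3, 16.3, 13.3 and 12.8 CPM in the treated ones. The saline values of Tgm1 were nearly equal, and the ARB libraries were the highest. Dr1, a subunit of a transcriptional repressor, had a fold change of 1.86, with 4.73 CPM in SHR 3 as the lowest value and 39.8 CPM in ARNI 3 as the highest. The rest of the 12 had smaller fold changes, between 0.38 (Arhgap10, a GTPase-activating protein) and 0.73 (Rasgrp1, a Ras activator). They were Dusp16, a phosphatase of stress-activated kinases (0.41), Rrp12, a ribosome assembly factor (0.54), Acss2, which makes acetyl-CoA from acetate (0.50), and Polr3b, a subunit of RNA polymerase III (0.43).

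Among the lower genes, Ptprr, a tyrosine phosphatase that acts on MAP kinases, had the smallest p of the named genes in this comparison. It was at 39.3 and 42.95 CPM with saline, 26.1 and 23.8 CPM with ARB, and 24.2 and 22.5 CPM with ARNI, with a fold change of -0.72 ± 0.11 (unadjusted p = 0.000291 in edgeR, adjusted p = 0.00547 in DESeq2). The 4 treated values lay close together, and both saline values were well above them. Rgs2, which shortens signalling from receptors coupled to Gq, the angiotensin II receptor among them, was at 28.3 and 37.1 CPM with saline, 14.6 and 21.6 CPM with ARB, and 13.5 and 11.9 CPM with ARNI (-1.05 ± 0.22, unadjusted p = 0.002301 in edgeR). Kcnj2, the main channel of the inward rectifier current, was at 32.5 and 42.1 CPM with saline, 22.6 and 26.8 CPM with ARB, and 25.8 and 18.6 CPM with ARNI (fold change -0.63 ± 0.17). Vegfd, a growth factor of lymphatic vessels, was at 25.4 and 35.9 CPM in the saline libraries against 19.7, 19.02, 11.95 and 15.3 CPM in the treated ones. Col4a6, a basement membrane collagen, had the widest fold change of the 12 (-1.34 ± 0.33), but its saline libraries themselves differed (5.42 and 12.9 CPM). Art1, an ADP-ribosyltransferase of muscle, had a fold change of -0.39, Parp9, an interferon-induced gene, of -0.51, and Apol9a of -0.41. Fam131a (-0.55), Lrrn2 (-0.80), Cyb5r2 (-0.67) and Mturn (-0.47) completed the list. In the libraries outside the rule, ARB 3 and ARNI 2 were both above SHR 2 in 1 of the 12 higher genes and both below it in 6. They were both below SHR 2 in 5 of the 12 lower genes and both above it in 2. The light chain share was close in SHR 2 (43.2%) and ARB 3 (44.0%), and ARNI 2 was at 99.8%. Between SHR 2 and ARB 3 alone, ARB 3 was below SHR 2 in all the higher genes but Cyp26b1 and Rasgrp1. It was also below SHR 2 in the lower genes, except Ptprr, Art1, Parp9 and Fam131a. With 1 library per group, these values are a description and not a repeat.

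**Figure D2:**
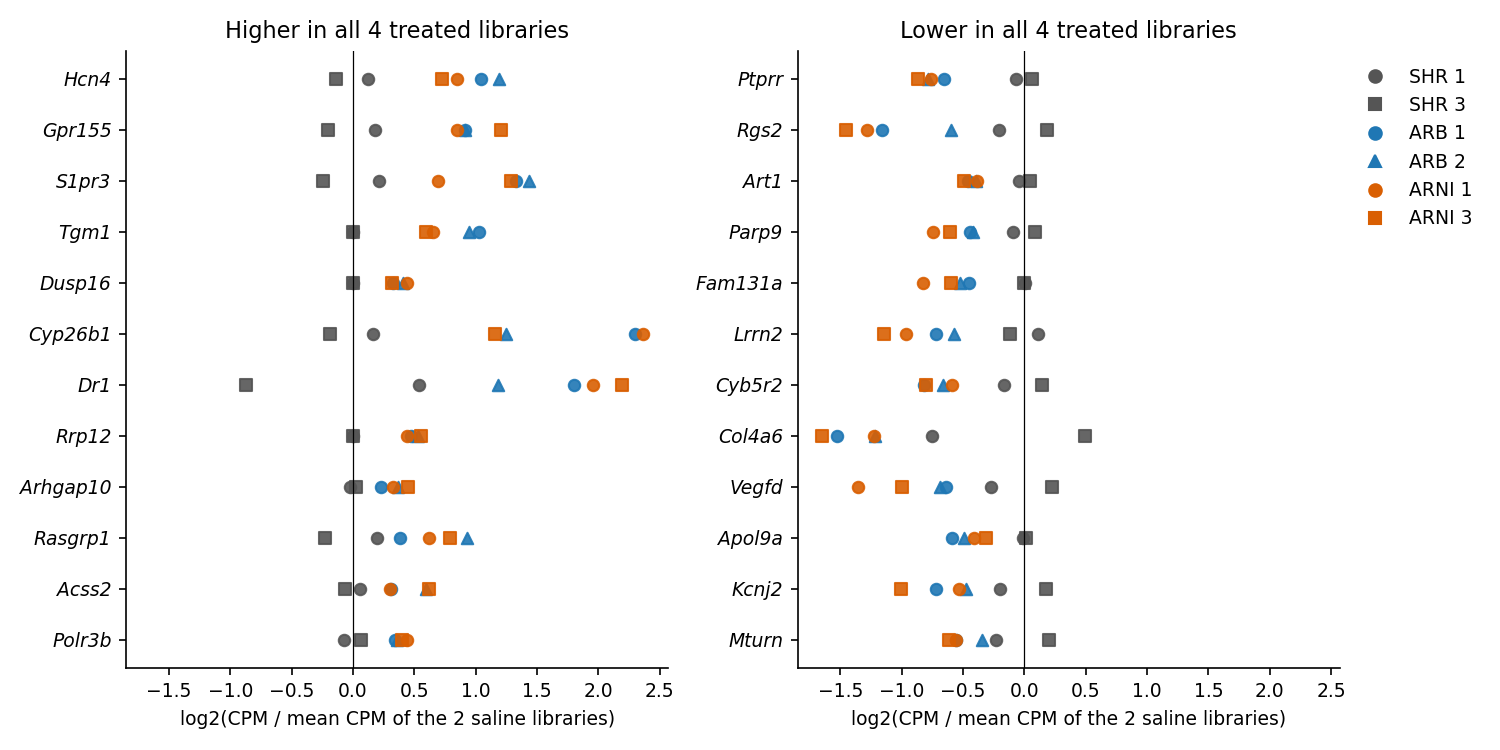
Log2 ratio of each library's CPM to the mean CPM of the 2 saline libraries (x axis) for the 12 higher genes (left) and the 12 lower genes (right) with the smallest p, 1 point per library. All treated points (ARB in blue, ARNI in orange) lie on 1 side of both saline points (grey) because genes were picked for that, and Hcn4, Gpr155 and S1pr3 lie near or above 1.

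The DESeq2 calls beyond Gpr155, S1pr3 and Dr1 were looked up after their values were seen. Adipoq (0 and 0 CPM with saline, 0.0661 and 192 CPM with ARB, 0 and 61.7 CPM with ARNI) and Ucp1 were high in ARB 2 and ARNI 3 alone, and Myl2 was used for the choice of libraries. Wbp11l1 was at 10.04 and 42.9 CPM in the ARNI libraries and at most 0.00463 CPM in the other 4. LOC103690175 was at 0 in both saline libraries and at 1.84 to 11.03 CPM in the treated ones. LOC100909761 was at 2.59 and 2.07 CPM in the saline libraries against 8.46, 7.16, 7.67 and 14.6 CPM in the treated ones, and LOC100910021, the lower call, was at 2.40 and 1.01 CPM in the saline libraries against 0.0575, 0, 0 and 0 CPM in the treated ones. The authors' estimated counts divide reads between near-identical genes, so the values of such predicted loci and of Dr1 are uncertain.

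Few genes of the drugs' own pathways separated treated from saline libraries. Of 13 tested renin-angiotensin genes (18 with counts), 0 had groups that did not overlap in treated against saline, and their median log2 fold change was 0.176, against 0.007 for all genes tested. Against saline the median was -0.015 with ARB and 0.367 with ARNI, where 10 of the 13 were above 0. The 2 ARNI libraries differed. The median log2 level of the list, relative to each gene's mean over the 6 libraries, was -0.145 in ARNI 1 and 0.27 in ARNI 3. With saline it was -0.097 and 0.084. Agt, angiotensinogen, was at 3.61 and 1.96 CPM with saline, 2.05 and 22.8 CPM with ARB, and 3.16 and 4.68 CPM with ARNI, with ARB 2 standing apart. Ace, the angiotensin-converting enzyme, was at 8.43 and 22.2 CPM with saline, 7.87 and 13.1 CPM with ARB, and 9.42 and 23.95 CPM with ARNI. Both Ace values above 20 CPM were in replicate 3 libraries, 1 saline and 1 ARNI. Agtr1a, the type 1 receptor, was at 2.68 and 5.83 CPM with saline, 3.11 and 5.09 CPM with ARB, and 2.401 and 8.55 CPM with ARNI. Mme, which encodes neprilysin, was at 0.201 and 1.22 CPM with saline, 0.463 and 4.13 CPM with ARB, and 0.1896 and 6.99 CPM with ARNI. It was near 1 CPM or lower except in ARB 2 and ARNI 3, the libraries with fat genes. Agtrap, a protein that promotes the internalization of the type 1 receptor, was at 29.4 and 27.2 CPM with saline, 27.4 and 27.5 CPM with ARB, and 22.2 and 16.8 CPM with ARNI. Its ARNI values lay below those of the other 4 libraries (ARNI against saline -0.49 ± 0.18, unadjusted p = 0.03797 in edgeR).

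Of 9 tested genes of natriuretic peptides, their receptors and processing (11 with counts), 0 had groups that did not overlap in treated against saline, and the median log2 fold change was -0.017. With ARNI against saline 0 did not overlap and the median was -0.002. In ARNI against ARB, 2 (22.2%, background 11%) were higher, 0 were lower (background 18.6%), and the median was 0.139. Nppa, atrial natriuretic peptide, was at 53630 and 38420 CPM with saline, 49540 and 37640 CPM with ARB, and 45680 and 18040 CPM with ARNI. ARNI 3 was the lowest, and the other 5 libraries lay within 1.5 times of each other. Nppb, brain natriuretic peptide, was at 852 and 1213 CPM with saline, 1470 and 557 CPM with ARB, and 1263 and 1038 CPM with ARNI (0.13 ± 0.38). The lowest and the highest Nppb value were both in the ARB group. Npr1, the receptor with guanylyl cyclase activity, was at 37.4 and 53.6 CPM with saline, 38.8 and 39.6 CPM with ARB, and 41.2 and 46.3 CPM with ARNI, and Npr3, the clearance receptor, was at 575 and 586 CPM with saline, 582 and 493 CPM with ARB, and 693 and 321 CPM with ARNI. Corin and Furin, the proteases that cut the propeptides, had fold changes of -0.06 and 0.02. Neither natriuretic peptide nor their receptors separated treated from saline libraries, and with 2 saline libraries the SE of these fold changes (-0.25 ± 0.40 for Nppa) leaves room for changes of either sign.

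Of 22 tested genes of cyclic GMP and protein kinase G signalling (23 with counts), 1 had groups that did not overlap, Rgs2, which is itself a substrate of protein kinase G, and the median was -0.049. With ARNI against saline, 1 (4.55%, background 9.82%) was higher and 2 (9.09%, background 19.5%) were lower. In ARNI against ARB, 4 (18.2%, background 11%) were higher and 4 (18.2%, background 18.6%) lower. Prkg1, the kinase, was at 4.75 and 9.48 CPM with saline, 3.83 and 4.95 CPM with ARB, and 4.86 and 6.51 CPM with ARNI. Pde5a, a phosphodiesterase of cyclic GMP, was at 3.41 and 9.21 CPM with saline, 5.36 and 4.95 CPM with ARB, and 3.48 and 7.67 CPM with ARNI, and Pde9a was at 3.34 and 5.22 CPM with saline, 3.64 and 4.13 CPM with ARB, and 4.93 and 4.14 CPM with ARNI. Nos1, a nitric oxide synthase, was at 1.21 and 0.833 CPM with saline, 0.666 and 1.999 CPM with ARB, and 3.03 and 2.38 CPM with ARNI, and its ARNI values were above both saline values (ARNI against saline 1.46 ± 0.60, unadjusted p = 0.05204 in edgeR). Of 12 tested genes of other neprilysin substrates and their receptors (24 with counts), 1 did not overlap. Ednrb, the endothelin B receptor, was at 81.5 and 83.3 CPM with saline, 76.3 and 70.8 CPM with ARB, and 72.7 and 25.4 CPM with ARNI. All 4 treated values were below saline, ARNI 3 by far the most, and the fold change was -0.38 ± 0.40. The median of this list was -0.026.

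Among the gene lists examined, the one in which the most genes stood below both saline libraries was that of interferon response and antigen presentation. Of its 36 genes, all tested, 12 (33.3%, background 6.78%) were lower in all 4 treated libraries and 1 (2.78%, background 3.31%) was higher. The median log2 fold change was -0.323, 7 genes had an unadjusted p under 0.05 in edgeR, all lower, and 0 of 36 were called. Interferons induce many of these genes through Stat2, Irf9 and their partners, which bind the interferon-stimulated response element. Mx2, an antiviral GTPase, was at 87.2 and 102 CPM with saline, 58.8 and 39.2 CPM with ARB, and 22.8 and 44.3 CPM with ARNI (-1.16 ± 0.32, unadjusted p = 0.00877 in edgeR). Ifih1, a sensor of double-stranded RNA, was at 13.2 and 18.6 CPM with saline, 9.46 and 10.6 CPM with ARB, and 9.67 and 11.5 CPM with ARNI (-0.58 ± 0.16, unadjusted p = 0.00938 in edgeR). Ifit1, which binds viral RNA, was at 33.8 and 34.3 CPM with saline, 26.5 and 17.4 CPM with ARB, and 12.2 and 19.2 CPM with ARNI (-0.81 ± 0.27). ARNI 1 had the lowest value of Mx2 and of Ifit1, and SHR 1 and SHR 3 were close to each other. Stat2 was at 60.9 and 65.9 CPM in the saline libraries against 52.5, 54.7, 47.1 and 47.4 CPM in the treated ones (-0.29 ± 0.10), a narrow difference with narrow groups.

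The list was not uniform. After the values were seen it was divided into the 8 genes of class II antigen presentation (RT1-Da, RT1-Db1, RT1-DMa, RT1-DMb, RT1-Ba, RT1-Bb, Cd74 and Ciita, their transactivator) and the other 28. All 28 had a fold change below 0 in treated against saline, with a median of -0.472. All 8 class II genes had one above 0, with a median of 0.578 (0.392 for ARB and 0.689 for ARNI against saline), and ARNI 3 was the highest library. There their median lay 0.871 above their mean over the 6 libraries, on the log2 scale, and in ARNI 1 it lay 0.518 below it. For the other 28 genes this median was 0.155 and 0.501 in the saline libraries, 0.098 and -0.097 with ARB, and -0.442 and -0.186 with ARNI. Macrophage genes (9 of 9 tested, none at 0) summed to 148 and 294 CPM with saline, 153 and 288 CPM with ARB, and 64.0 and 217 CPM with ARNI. ARNI 1 was the lowest in both measures, and the part of macrophage RNA in the interferon values was not tested.

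Each drug was then set against saline on its own, in a fit with 3 groups of 2 libraries. The 2 comparisons use the same saline libraries and are not independent. With ARB, 13 of the 36 interferon genes (36.1%, background 14%) were below both saline values and 6 (16.7%, background 11.4%) above, with a median of -0.209. With ARNI, 25 of 36 (69.4%, background 19.5%) were below and 1 (2.78%, background 9.82%) was above, with a median of -0.445, and 14 had an unadjusted p under 0.05 in edgeR, against 2 with ARB. In ARNI against ARB, 13 (36.1%, background 18.6%) were lower, 0 were higher (background 11%), and the median was -0.201. Irf7, the regulator that amplifies the interferon response, was at 69.9 and 77.1 CPM with saline, 63.1 and 38.9 CPM with ARB, and 23.1 and 39.5 CPM with ARNI (ARNI against saline -1.19 ± 0.34, unadjusted p = 0.0129 in edgeR). Ifit3 was at 11.4 and 14.2 CPM with saline, 10.3 and 6.81 CPM with ARB, and 5.51 and 11.2 CPM with ARNI, and Tap2, a subunit of the peptide transporter of class I antigen presentation, was at 25.6 and 34.5 CPM with saline, 24.3 and 24.3 CPM with ARB, and 22.3 and 21.5 CPM with ARNI. In both genes, shown with the sequences below and chosen after their values were seen, the ARB and ARNI values were all below saline, by little in some libraries.

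The median of the 36 genes in treated against saline stayed below 0 with each library left out. It was -0.198 without SHR 3, -0.386 without SHR 1, -0.281 without ARNI 3 and -0.334 without ARB 2 and ARNI 3. It was -0.128 with all 9 libraries of SHRs. Without SHR 3, 13 of 36 (36.1%) were lower in all treated libraries, against 16.2% of all genes. Without SHR 1, 24 of 36 (66.7%) were, against 31.1%.

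Promoter windows of RefSeq (GRCr8) were also searched, each from 250 bases before to 50 bases after the transcription start. The letters GAAANNGAAA, or TTTCNNTTTC on the other strand, the core of the interferon-stimulated response element, were in the windows of 13 of 27 list genes with a window (48.1%) and of 1131 of 27457 genes (4.12%). Of the 7 genes with a window that were lower in all 4 treated libraries, 5 held them. For 4 of these 5, the 250 bases before the start are printed 5′ to 3′ along the gene, with the match in capitals, since they show where the element lies. They are Irf7 (chr1:205800024-205800273, minus strand, match from base -69 to -60), Ifit3 (chr1:241527076-241527325, plus strand, -44 to -35), Ifih1 (chr3:67683969-67684218, minus strand, -59 to -50) and Tap2 (chr20:4652297-4652546, minus strand, -41 to -32).
Irf7: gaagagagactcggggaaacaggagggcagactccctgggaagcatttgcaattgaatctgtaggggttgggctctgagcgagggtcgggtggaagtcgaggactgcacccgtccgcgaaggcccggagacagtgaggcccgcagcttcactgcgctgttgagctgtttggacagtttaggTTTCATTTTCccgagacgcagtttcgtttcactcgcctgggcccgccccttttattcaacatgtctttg
Ifit3: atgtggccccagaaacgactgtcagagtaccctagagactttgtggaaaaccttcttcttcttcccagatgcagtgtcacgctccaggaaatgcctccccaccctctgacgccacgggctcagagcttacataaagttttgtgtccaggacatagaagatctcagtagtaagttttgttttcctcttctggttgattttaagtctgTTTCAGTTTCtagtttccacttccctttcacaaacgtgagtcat
Ifih1: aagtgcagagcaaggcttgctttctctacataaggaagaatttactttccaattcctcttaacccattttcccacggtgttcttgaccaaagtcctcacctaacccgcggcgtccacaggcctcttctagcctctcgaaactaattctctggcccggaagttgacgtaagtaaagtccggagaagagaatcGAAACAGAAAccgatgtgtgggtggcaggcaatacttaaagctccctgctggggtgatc
Tap2: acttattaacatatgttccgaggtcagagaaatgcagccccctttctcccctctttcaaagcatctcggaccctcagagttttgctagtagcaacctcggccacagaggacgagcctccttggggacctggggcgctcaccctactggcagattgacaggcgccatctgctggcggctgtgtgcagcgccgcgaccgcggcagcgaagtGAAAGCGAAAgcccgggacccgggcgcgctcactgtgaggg
The match lies in the last 70 bases before the start in all 4, upstream of the first exon. A match describes the letters only, and no binding was measured. The share of a list with an element follows from which genes it holds and not from treatment, here and for the elements below.

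**Figure D3:**
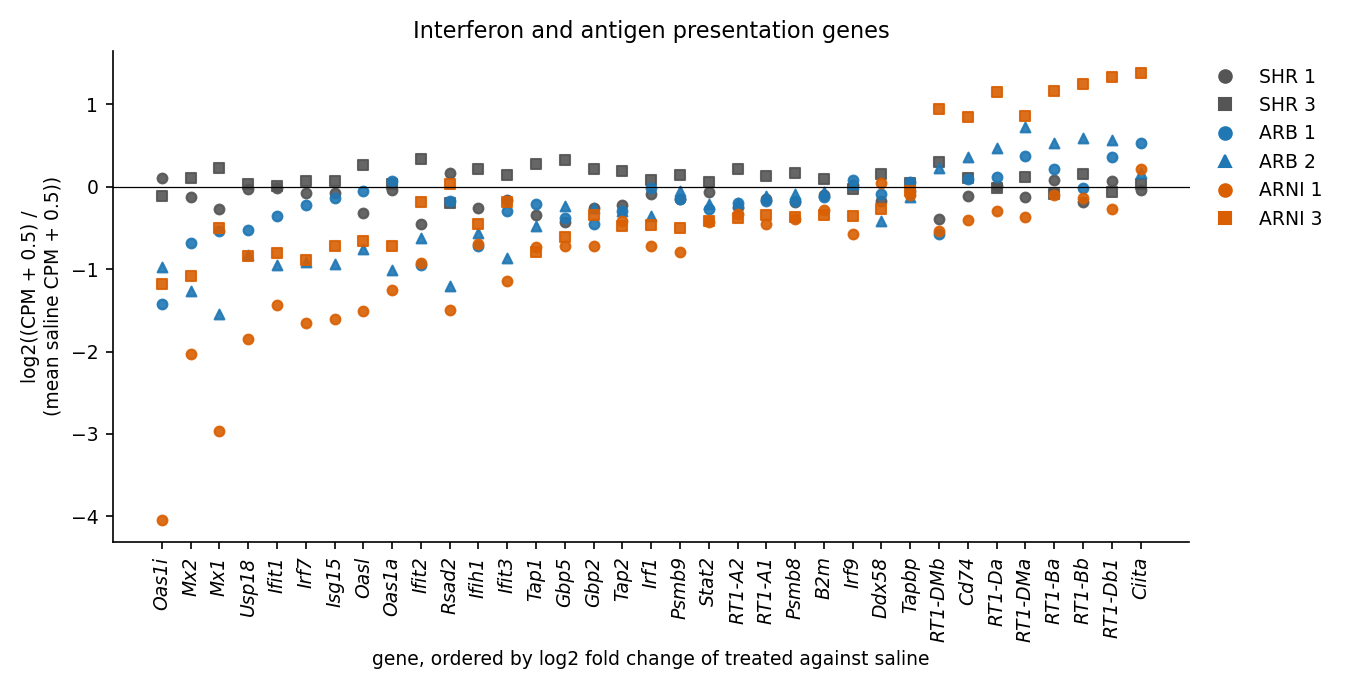
Log2 ratio of (CPM + 0.5) to the mean saline value for 35 of the 36 genes of interferon response and antigen presentation, ordered by log2 fold change, 1 point per library. Treated points lie mostly below the saline points on the left, in many genes lowest in ARNI 1, and the 8 class II genes at the right end lie highest in ARNI 3.

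Proliferation genes were also lower, at low levels. Of 29 tested, 8 (27.6%, background 6.78%) were below both saline values in all treated libraries, 0 were above, and the median log2 fold change was -0.58. Ccnb2, a mitotic cyclin, was at 1.27 and 1.33 CPM with saline, 0 and 0 CPM with ARB, and 0.305 and 0 CPM with ARNI, and the values at 0 allow up to 0.206 CPM. Cdk1, the mitotic kinase, was at 1.34 and 1.76 CPM with saline, 0.595 and 0.619 CPM with ARB, and 0.822 and 0.746 CPM with ARNI (-1.10 ± 0.36, unadjusted p = 0.0181 in edgeR). Cenpf, a kinetochore protein, was at 1.003 and 2.17 CPM with saline, 0.265 and 0.413 CPM with ARB, and 0.822 and 0.407 CPM with ARNI. Such levels rest on few reads per library. In SHR 3 the median of these genes lay 0.506 above their mean over the 6 libraries, on the log2 scale, and without that library the median fold change was -0.136.

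Of 30 lists, 12 changed the sign of their median without SHR 3, and the lists of immediate early and of fibrosis genes were among those 12. Immediate early genes, which are transcribed within minutes of a stimulus or of tissue handling, had a median of -0.847 over 38 genes, with 0 of them clear of both saline libraries. Nr4a1 was at 109.6 and 1317 CPM with saline, 47.8 and 82.3 CPM with ARB, and 142 and 295 CPM with ARNI, and Egr1 was at 116 and 1027 CPM with saline, 75.1 and 74.8 CPM with ARB, and 176 and 268 CPM with ARNI. SHR 3 was several times above each other library, while SHR 1 lay among the treated ones. Without SHR 3 the median was 0.466, and without SHR 1 it was -1.373. Fibrosis and matrix genes, a target of both drugs' pathways, had a median of -0.396 over 40 genes, 0 clear of both saline libraries, and 0.355 without SHR 3. Thbs1, a matrix glycoprotein that activates transforming growth factor beta, was at 8.36 and 149 CPM with saline, 10.2 and 7.29 CPM with ARB, and 14.4 and 17.7 CPM with ARNI, and Col8a1 was at 6.22 and 26.4 CPM with saline, 4.10 and 6.53 CPM with ARB, and 4.17 and 7.803 CPM with ARNI. Both had an unadjusted p under 0.05 in edgeR (0.02103 and 0.0248), with SHR 3 far above the other 5 libraries. Fibroblast genes (8 of 8 tested, none at 0) summed to 1371 and 3240 CPM with saline, 1303 and 1976 CPM with ARB, and 936 and 2200 CPM with ARNI. The direction of the matrix genes with treatment thus depended on SHR 3. Of 33 tested genes of transforming growth factor beta signalling, 0 were clear of both saline libraries in treated against saline, and the median was -0.064.

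**Figure D4:**
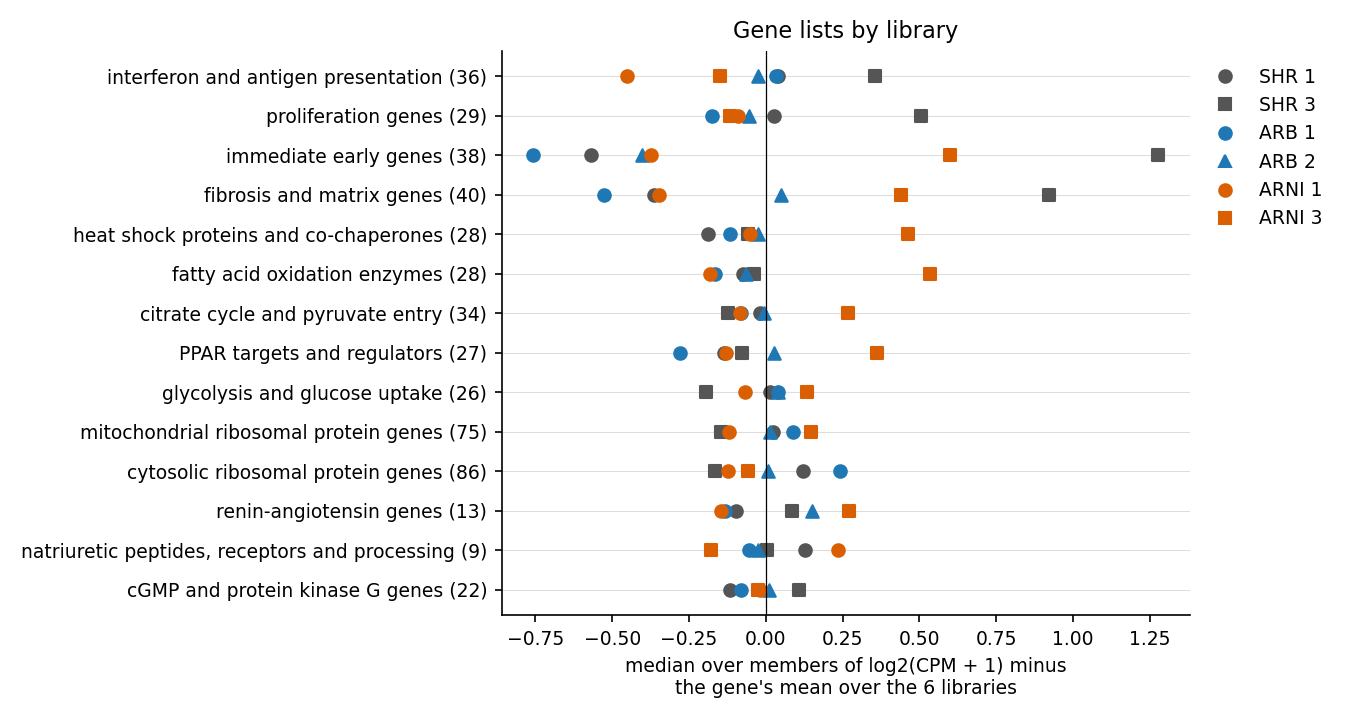
Median over the members of each gene list (number in brackets) of log2(CPM + 1) minus the gene's mean over the 6 libraries, 1 point per library. SHR 3 lies far to the right for immediate early (1.277) and fibrosis genes (0.922), ARNI 3 for heat shock, fatty acid oxidation and citrate cycle genes, and ARNI 1 to the left for interferon genes (-0.451).

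Energy metabolism and chaperone genes had medians slightly above 0 in treated against saline. These came close to 0 without ARNI 3 for fatty acid oxidation and without SHR 3 for glycolysis and mitochondrial ribosomal proteins. Of 28 fatty acid oxidation enzymes, 26 had a fold change above 0 in treated against saline with a median of 0.146, 0 were clear of both saline libraries, and the median was 0 without ARNI 3. Cpt1b, the carnitine palmitoyltransferase of muscle, was at 622 and 534 CPM with saline, 569.5 and 578 CPM with ARB, and 689 and 763 CPM with ARNI, with ARNI 3 the highest. Of 34 genes of the citrate cycle and pyruvate entry, 32 were above 0, 2 were clear of saline (5.88%), and the median was 0.165, or 0.065 without ARNI 3 and 0.073 without SHR 3. With ARNI alone, 9 (26.5%, background 9.82%) were above both saline values and 0 below (background 19.5%). The median was 0.237, or 0.073 without ARNI 3. Of 26 genes of glycolysis and glucose uptake, 24 were above 0 and 1 was clear of saline, Pgam1, a phosphoglycerate mutase, at 375 and 338 CPM with saline, 406 and 423 CPM with ARB, and 457 and 526 CPM with ARNI (0.38 ± 0.15, unadjusted p = 0.0372 in edgeR). The median of this list was 0.153, or 0.017 without SHR 3. Of 75 mitochondrial ribosomal protein genes, 68 were above 0 and 7 (9.33%, background 3.31%) were clear of saline, with a median of 0.12. Mrps2 was at 24.3 and 25.5 CPM in the saline libraries against 30.6, 28.9, 29.5 and 34.7 CPM in the treated ones, and Mrps27 was at 50.3 and 48.8 CPM in the saline libraries against 59.1, 58.3, 59.03 and 73.6 CPM in the treated ones. These are narrow differences between narrow groups. Without SHR 3 the median of the mitochondrial ribosomal list was 0.014. Of 27 tested PPAR targets and regulators, 2 (7.41%, background 3.31%) were higher and 2 (7.41%, background 6.78%) lower in all treated libraries. With ARNI alone, 9 (33.3%, background 9.82%) were above both saline values and 2 (7.41%, background 19.5%) below. The median was 0.324, or 0.087 without ARNI 3. Scd, a fatty acid desaturase of adipocytes, was at 1.56 and 2.07 CPM with saline, 3.78 and 1290 CPM with ARB, and 3.37 and 30.7 CPM with ARNI, and Ucp3 was at 0.134 and 0.0677 CPM with saline, 0.132 and 1.58 CPM with ARB, and 0.316 and 7.87 CPM with ARNI. The highest values of both were in the libraries with fat genes.

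Of 28 heat shock proteins and co-chaperones, 26 had a fold change above 0 in treated against saline (median 0.215) and 3 (10.7%, background 3.31%) were clear of saline. With ARNI, 10 (35.7%, background 9.82%) were above both saline values, 6 with an unadjusted p under 0.05 in edgeR, and the median was 0.353, or 0.097 without ARNI 3. Chordc1, a partner of Hsp90, was at 33.4 and 37.5 CPM with saline, 33.5 and 45.3 CPM with ARB, and 44.7 and 60.1 CPM with ARNI (ARNI against saline 0.61 ± 0.19, unadjusted p = 0.0172 in edgeR). Dnajb5, a co-chaperone, was at 89.8 and 106 CPM with saline, 152 and 87.2 CPM with ARB, and 159 and 223 CPM with ARNI, and Hspa8, the constitutive Hsc70, was at 1123 and 1198 CPM with saline, 1194 and 1214 CPM with ARB, and 1314 and 1807 CPM with ARNI. ARNI 3 was the highest library in all 3. The heat shock element, searched as GAANNTTCNNGAA or TTCNNGAANNTTC, was in the promoter windows of 6 of 25 list genes with a window (24.0%) and of 0.794% of all genes, and in 2 of the 9 that were higher with ARNI. Those were Hspa8, shown here, and Chordc1, where the matches lie after the start. The bases before the start of Hspa8 (chr8:50080264-50080513 in GRCr8, plus strand) are printed with their 2 matches, from base -213 to -201 and from -55 to -43, in capitals.
Hspa8: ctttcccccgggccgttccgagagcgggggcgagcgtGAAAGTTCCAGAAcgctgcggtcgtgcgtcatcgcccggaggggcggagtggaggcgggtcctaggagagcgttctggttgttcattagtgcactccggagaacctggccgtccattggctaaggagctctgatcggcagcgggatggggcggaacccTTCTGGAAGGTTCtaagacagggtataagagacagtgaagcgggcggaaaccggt

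Among 48 tested ion channel, connexin and calcium cycling genes, 4 (8.33%, background 3.31%) were higher and 1 (2.08%, background 6.78%) was lower in all treated libraries. The lower gene was Kcnj2, and Hcn4 was among the higher. Gja5, the connexin of atrial and conducting cells, was at 15.8 and 7.79 CPM with saline, 26.1 and 36.6 CPM with ARB, and 17.1 and 27.8 CPM with ARNI (1.21 ± 0.38, unadjusted p = 0.01501 in edgeR). The gap between the groups was narrow, with ARNI 1 just above SHR 1. Of 20 circadian clock genes, 1 was clear of saline, Cry1, a repressor of the clock, at 7.16 and 7.11 CPM with saline, 11.4 and 15.9 CPM with ARB, and 20.8 and 10.9 CPM with ARNI (1.09 ± 0.30, unadjusted p = 0.00892 in edgeR). Of 31 oxidative stress genes, 0 were higher and 3 (9.68%) were lower in all treated libraries. Nox4, an oxidase that makes hydrogen peroxide, was at 2.94 and 7.05 CPM with saline, 1.85 and 1.995 CPM with ARB, and 2.21 and 1.29 CPM with ARNI (-1.38 ± 0.39, unadjusted p = 0.009598 in edgeR), and Gclc, the limiting enzyme of glutathione synthesis, was at 46.3 and 49.8 CPM in the saline libraries against 34.3, 36.7, 41.4 and 39.8 CPM in the treated ones. Of 35 tested inflammation and chemokine genes, 2 were higher and 4 (11.4%) were lower. Selp, the P-selectin of activated platelets and endothelium, was at 1.14 and 1.08 CPM in the saline libraries against 2.58, 2.27, 2.34 and 1.90 CPM in the treated ones, and Cxcl16 was at 33.4 and 43.8 CPM in the saline libraries against 30.01, 31.8, 28.3 and 31.3 CPM in the treated ones. Of 22 tested genes of propanoate and branched-chain breakdown, 1 was higher, the cytosolic Acss2 (107 and 98.6 CPM in the saline libraries against 128, 156, 127 and 159 CPM in the treated ones), and 1 was lower, its mitochondrial counterpart Acss1 (359 and 441 CPM in the saline libraries against 268, 266, 337 and 334 CPM in the treated ones).

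ARB alone against saline gave the pacemaker channel as the clearest gene. No gene passed both thresholds in edgeR (0 of 14390, 0%; smallest adjusted p 1), 193 (1.34%) had an unadjusted p under 0.05, and DESeq2 called 8, 5 higher and 3 lower. Both ARB values were above both saline values for 1640 genes (11.4%) and below for 2012 (14%). Hcn4 had the smallest p (fold change 1.14 ± 0.16, unadjusted p = 0.000381 in edgeR, adjusted p = 4.82e-05 in DESeq2), with both ARB values above 100 CPM and both saline values under 60 CPM. The next higher genes were Tgm1 (1.02 ± 0.17), S1pr3 (1.41 ± 0.25) and Gpr155 (0.94 ± 0.20). The lower genes were Rab1b, a GTPase of transport from the endoplasmic reticulum, with 14.2 and 20.97 CPM with saline, 7.03 and 7.32 CPM with ARB, and 13.1 and 14.4 CPM with ARNI, then Ptprr (-0.69 ± 0.14), Apol9a (-0.51 ± 0.11) and Tcp11l2 (-0.57 ± 0.13). Rab1b in the ARNI libraries lay near SHR 1. Its reads may be shared with near-identical copies, so its value is uncertain. Immediate early genes were lower with ARB (12 of 38, 31.6%, background 14%; median -1.263), and their median was 0.08 without SHR 3. Of 75 mitochondrial ribosomal protein genes, 29 (38.7%, background 11.4%) were above both saline values with ARB, with a median of 0.124, or 0.011 without SHR 3. Eln, elastin, was at 166 and 262 CPM with saline, 102 and 106 CPM with ARB, and 183 and 269.8 CPM with ARNI, lower with ARB than in the other 4 libraries (ARB against saline -1.001 ± 0.26, unadjusted p = 0.00849 in edgeR).

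ARNI alone against saline showed more genes at a small p than ARB did, with Enah, Myh7 and B3galt2 leading the genes above saline, and Bmf, Rgs2 and the interferon-induced Irgm2 and Ifi44 those below it. That the 2 drugs differ in this number was not tested, and the shares with ARB (1.34%) and ARNI (3.76%) were both under 5%. In edgeR 0 of 14390 genes (0%) passed both thresholds, 541 (3.76%) had an unadjusted p under 0.05, 311 higher and 230 lower, and the smallest adjusted p was 0.151. DESeq2 called 26, 17 higher and 9 lower. Both ARNI values were above both saline values for 1413 genes (9.82%) and below for 2800 (19.5%). Enah, which extends actin filaments, was at 335 and 425 CPM with ARNI, 191 and 174 CPM with saline, and 223 and 199 CPM with ARB (1.10 ± 0.18, unadjusted p = 0.00101 in edgeR). Myh7, the beta myosin heavy chain of ventricular and slow muscle, was at 625 and 763 CPM with ARNI, 357 and 402 CPM with saline, and 422 and 406 CPM with ARB (0.92 ± 0.16, unadjusted p = 0.00112 in edgeR). Of the ventricular genes that the rule did not use, Hey2, a transcription factor, was at 1.01 and 4.68 CPM with ARNI, 1.54 and 2.17 CPM with saline, and 1.26 and 1.72 CPM with ARB, and Irx5, another, was at 4.995 and 0.359 CPM with ARNI, 4.94 and 5.35 CPM with saline, and 5.16 and 3.195 CPM with ARB. Irx4, a defining ventricular factor, was at 0 in both ARNI libraries. The part of ventricular muscle in the Myh7 values was not tested. B3galt2, a galactosyltransferase, was at 28 and 36.8 CPM with ARNI, 10.6 and 14.4 CPM with saline, and 12.8 and 10.2 CPM with ARB (1.43 ± 0.23). In all 3 genes the ARB libraries lay nearer to the saline than to the ARNI libraries.

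Of 31 atrial sarcomere and identity genes, 9 (29.0%, background 9.82%) were above both saline values with ARNI and 5 (16.1%, background 19.5%) below, with a median of 0.141. Acta1, the skeletal alpha-actin that is also made in fetal and loaded heart muscle, was at 94.4 and 287 CPM with ARNI, 42.7 and 20.9 CPM with saline, and 54.4 and 40.96 CPM with ARB (2.61 ± 0.61, unadjusted p = 0.005699 in edgeR). Xirp2, an actin-binding protein of the intercalated disc, was at 459.6 and 801 CPM with ARNI, 219 and 274 CPM with saline, and 185 and 365 CPM with ARB, and Tpm2, a tropomyosin, was at 204 and 157 CPM with ARNI, 139 and 129 CPM with saline, and 144 and 163 CPM with ARB. Chosen after their values were seen, Acta2, the smooth muscle alpha-actin, was at 168 and 351 CPM with ARNI, 73.7 and 52.2 CPM with saline, and 82.3 and 76.8 CPM with ARB (2.08 ± 0.38, unadjusted p = 0.00168 in edgeR), and Tgfb2, a transforming growth factor beta, was at 228 and 208 CPM with ARNI, 89.5 and 94.6 CPM with saline, and 128 and 89.7 CPM with ARB (1.30 ± 0.22, unadjusted p = 0.00116 in edgeR). Both were called by DESeq2, and their ARNI values lay above the other 4 libraries. Smooth muscle and pericyte genes (8 of 8 tested, none at 0) summed to 670.3 and 638.2 CPM with saline. They summed to 609.4 and 745.3 CPM with ARB, and to 751.3 and 1030 CPM with ARNI. These sums include Acta2, chosen after its values were seen, so their gap is in part set by that choice. Of the 8 genes, 2, Acta2 among them, were above both saline values with ARNI, and 1 was below both. The median log2 level of the 8, relative to each gene's mean over the 6 libraries, was -0.572 and 0.105 with saline. It was -0.372 in ARNI 1, between the saline libraries, and 1.102 in ARNI 3. Tagln, a smooth muscle actin-binding protein, was at 4.93 and 154 CPM with ARNI, 4.41 and 25.1 CPM with saline, and 5.03 and 40.4 CPM with ARB, and Myh11, the smooth muscle myosin heavy chain, was at 20.9 and 154 CPM with ARNI, 22 and 46.9 CPM with saline, and 22.2 and 59.6 CPM with ARB. ARNI 3 was the highest library in both, while ARNI 1 lay at or near the lowest. The part of smooth muscle cells in the Acta2 values was not tested. The CArG box, which binds serum response factor, was in the promoter windows of 4 of 24 genes of the sarcomere list with a window (16.7%) and of 1.77% of all genes. It was in 3 of the 7 that were higher with ARNI, Acta1, Actc1 and Fhl1. The bases before the start of Acta1, the gene of this list with the widest fold change among the higher ones, (chr19:68784195-68784444 in GRCr8, minus strand) are printed with the match, from base -94 to -85, in capitals.
Acta1: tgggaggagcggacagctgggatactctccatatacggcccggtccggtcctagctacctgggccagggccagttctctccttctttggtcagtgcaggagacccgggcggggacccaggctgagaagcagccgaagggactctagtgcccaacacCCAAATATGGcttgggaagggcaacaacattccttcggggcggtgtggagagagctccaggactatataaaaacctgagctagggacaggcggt
Only the exact consensus of the box was searched, and no match to it was found before the start of Acta2.

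The genes lower with ARNI were Bmf, a promoter of apoptosis, at 10.2 and 9.499 CPM with ARNI, 21.2 and 23.1 CPM with saline, and 17.2 and 21.1 CPM with ARB (-1.11 ± 0.15, unadjusted p = 0.000395 in edgeR), Rgs2 (-1.31 ± 0.21), and 2 interferon-induced genes outside the list above. Irgm2, a GTPase of cell-autonomous immunity, was at 40.3 and 42.5 CPM with ARNI, 66.7 and 74.9 CPM with saline, and 53.8 and 56.2 CPM with ARB (-0.72 ± 0.11, unadjusted p = 0.000682 in edgeR), and Ifi44 was at 17.9 and 18.7 CPM with ARNI, 29.1 and 31.3 CPM with saline, and 23.1 and 26.3 CPM with ARB (-0.67 ± 0.12). The ARB values of both lay between the ARNI and the saline values.

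ARNI against ARB compared the combination as given with valsartan as given, and the valsartan dose of the ARNI group is not known. B3galt2, Txnip and Uck2 led the genes higher with ARNI, and Ephx1, Bmf, Gins2 and Neu2 those lower. In edgeR 0 of 14390 genes (0%) passed both thresholds, with 412 (2.86%) at an unadjusted p under 0.05 and a smallest adjusted p of 0.131, and DESeq2 called 8, 5 higher and 3 lower. Both ARNI values were above both ARB values for 1581 genes (11%) and below for 2678 (18.6%). B3galt2 had the smallest p of the higher genes (1.504 ± 0.24, unadjusted p = 0.0007597 in edgeR, adjusted p = 0.00213 in DESeq2). Txnip, which binds thioredoxin and restrains glucose uptake, was at 780.1 and 1012 CPM with ARNI, 442 and 488 CPM with saline, and 478 and 431 CPM with ARB (0.99 ± 0.18), and Uck2, a pyrimidine salvage kinase, was at 23.1 and 23.95 CPM with ARNI, 13.5 and 16.3 CPM with saline, and 13.7 and 13.6 CPM with ARB (0.80 ± 0.15). Ephx1, an epoxide hydrolase, was at 22.3 and 26.6 CPM with ARNI, 37.1 and 36.2 CPM with saline, and 43.6 and 49.4 CPM with ARB (-0.91 ± 0.13, unadjusted p = 0.000538 in edgeR). Bmf was lower (-0.93 ± 0.15), as were Gins2, a replication factor, at 4.97 and 4.11 CPM with ARNI, 10.6 and 8.17 CPM with saline, and 10.4 and 10.7 CPM with ARB, and Neu2, a sialidase, at 5.18 and 3.80 CPM with ARNI, 9.496 and 8.87 CPM with saline, and 9.66 and 10.1 CPM with ARB. In each of these genes the saline libraries lay closer to ARB than to ARNI. Of 86 cytosolic ribosomal protein genes, 57 (66.3%, background 18.6%) were below both ARB values with ARNI, with a median of -0.197. Their log2 level relative to the mean over the 6 libraries had a median of 0.243 and 0.008 with ARB. It was -0.124 and -0.057 with ARNI, and 0.122 and -0.166 with saline, so the saline values lay on both sides of the ARNI ones. Of 28 heat shock genes, all had a fold change above 0, with a median of 0.341, and 8 (28.6%, background 11%) were clear of ARB. The median log2 level of this list was 0.464 in ARNI 3 and -0.053 in ARNI 1, against -0.116 in ARB 1 and -0.024 in ARB 2. ARNI 1 thus lay between the ARB libraries.

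The smallest p in both ARNI comparisons belonged to the predicted locus LOC103689931, looked up after its values were seen. It was at 12.5 and 12.4 CPM with ARNI, 90.9 and 69.3 CPM with saline, and 78.2 and 87.7 CPM with ARB. In the libraries outside the rule it was at 82.9 CPM in SHR 2, 99.3 CPM in ARB 3 and 79.5 CPM in ARNI 2, so the third ARNI library was at the level of saline. Estimated counts of such loci depend on how reads were divided among similar genes.

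**Figure D5:**
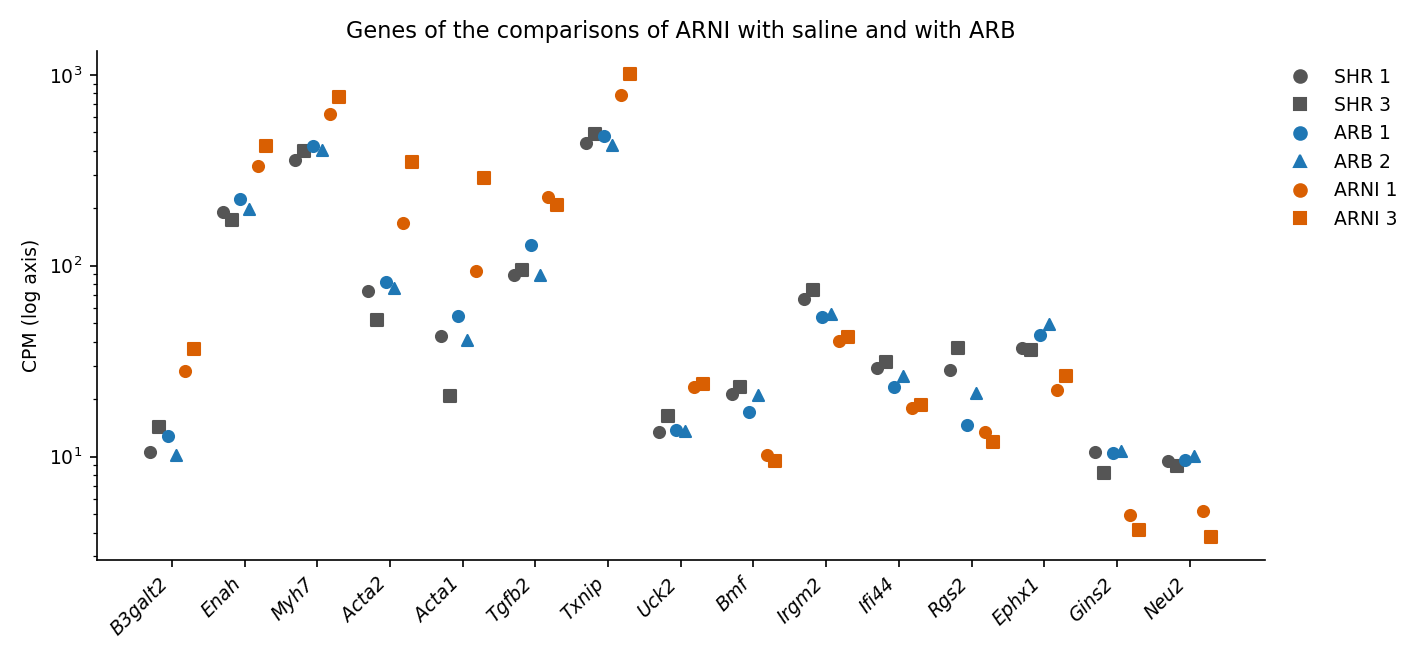
CPM on a log axis of 15 genes named for the comparisons of ARNI with saline and with ARB, 1 point per library. ARNI points (orange) lie above the others for the 8 genes at the left, Acta2 at 167.5 and 351 CPM among them, and below for the 7 at the right, while ARB points (blue) lie near the saline points (grey) for most genes.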

How the data were processed

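Total RNA of tissue labelled as left atrium was extracted with TRIzol, enriched with oligo(dT) and sequenced on a BGISEQ-500 as single reads of 50 bases. Per the submitters' processing notes and methods, reads were mapped with HISAT2 2.0.4 and Bowtie2 2.2.5 (Rnor_6.0). RSEM then estimated the expected counts per gene that the authors deposited, in which a read shared between genes is divided (23.6% of values were not whole numbers). Whether counting used strand is not given in the sources used here, so reads of overlapping antisense genes cannot be told apart. The table also holds a log2 ratio and a p-value of the authors' comparison of SHR with WKY, which were not used. Values were available for 21239 of 37246 listed genes, and 91.7% of their gene identifiers matched the GRCr8 table of RefSeq.

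Expected counts were rounded, filtered with filterByExpr (14390 genes left), scaled by TMM and tested with edgeR 4.0.16 (glmQLFit and glmQLFTest, R 4.3.3, limma 3.58.1). Genes were called at a log2 fold change of 1 or more in size with a p of 0.05 or less after Benjamini-Hochberg adjustment over all genes tested. Treated against saline was fitted on 2 groups, and the single drugs on 3 groups of 2 libraries. CPM values are expected counts scaled to a library total of 1000000, without TMM scaling, and groups that did not overlap were judged on them. A median over a list was taken over the genes tested. For treated against saline, named genes were the calls, filled up to 12 in each direction with the smallest unadjusted p. The filling took genes with groups that did not overlap and a mean of at least 5 CPM, predicted loci left out. For the single drugs and ARNI against ARB, the 4 smallest unadjusted p in each direction were taken. The same limits on level and predicted loci held there, and groups that did not overlap were not required. Beside these, the members of the renin-angiotensin, natriuretic peptide and cyclic GMP lists could be named, and up to 4 genes with the smallest p of each other list. The libraries, members and lists were chosen with earlier results of these data known. The study gives 3 rats per group, and samples were grouped by the name in brackets in their labels. The procedure was tested on simulated data. DESeq2 1.42.0, other scalings and filters, a covariate for the light chain ratio, and fits without each library were alternatives. Values of some genes, and a further covariate, are not reported here. Python 3.11.15 with pandas 2.3.3, numpy 2.4.6 and matplotlib 3.10.9 was used for counts and plots.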

Additional observations from a re-analysis of the deposited data

Results flagged for a closer look

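Of 203 values tested over the 4 treated libraries, 18 (8.87%) had 1 library whose gap to the nearest other exceeded Dixon's critical share of the range for 4 samples, where chance gives about 5%. ARNI 3 was the library in 13 of them, ARB 2 in 4, ARNI 1 in 1 and ARB 1 in 0. In ARB 2, Scd was at 1290 CPM (3.37 to 30.7 CPM in the other treated libraries), Acaca, acetyl-CoA carboxylase, at 84.2 CPM (21.4 to 28.7 CPM), Pc, pyruvate carboxylase, at 182.7 CPM (67.6 to 85.5 CPM), and Agt at 22.8 CPM (2.05 to 4.68 CPM). These are genes that adipocytes express, and the fat gene Adipoq was also highest in ARB 2.

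In ARNI 3, the neuron genes summed to 227 CPM (16.9 to 27.96 CPM in the others), the brown adipocyte genes to 331.9 CPM (86.9 to 119.4 CPM), the B cell genes to 35.6 CPM (26.8 to 27.8 CPM) and the strain-linked genes to 243 CPM (145 to 157 CPM). Metabolic genes high in ARNI 3 were Acadvl, a fatty acid oxidation enzyme, at 359.6 CPM (213.9 to 234 CPM), Angptl4, an inhibitor of lipoprotein lipase, at 19.3 CPM (0.331 to 2.89 CPM), and Bcat1, a branched-chain aminotransferase, at 44.98 CPM (5.06 to 8.39 CPM). Atp6ap2, the prorenin receptor, was at 18.9 CPM (14.3 to 14.98 CPM), Gpr155 at 53.9 CPM (42.0 to 44.0 CPM), Id1, a target of bone morphogenetic proteins, at 90.4 CPM (51.2 to 54.0 CPM), and Mrps27 at 73.6 CPM (58.3 to 59.1 CPM). Ednrb at 25.4 CPM (70.8 to 76.3 CPM) and Furin at 144 CPM (185 to 191.6 CPM) were low in that library. Ccnb2 was at 0.305 CPM in ARNI 1 and at 0 in the other 3, a difference of a few counts.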

How the results depend on the processing

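No edgeR setting called a gene in any of the 4 comparisons, with the counts without each library in turn ranging from 0 to 0. DESeq2 called 10 genes for treated against saline, 8 for ARB against saline, 26 for ARNI against saline and 8 for ARNI against ARB. Why the tools differ was not tested. With a replicate block on the numbers that SHR, ARB and ARNI libraries share, 0 genes were called for treated against saline and 0 for ARNI against saline. The libraries share only a number (correlation of deviations r = 0.265 for SHR 1 and ARNI 1). Of 728 alternative values of the named genes, all kept their direction, and 11 passed both thresholds, all in DESeq2. Selection for a small p, and in treated against saline for groups that do not overlap, largely fixes the direction. List medians moved more. Of 30 lists in treated against saline, the sign changed for 12 without SHR 3 (largest shift 1.313), for 9 without ARNI 3, for 2 without SHR 1, for 13 with the light chain covariate, which is made of the genes that chose the libraries, and for 1 with no scaling. The fit without ARB 2 and ARNI 3, chosen after seeing the data, changed it for 10. Depth limits genes near 1 CPM, where a library holds about 15 reads.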
